A study of Rattus norvegicus with 13 samples.

Results

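The 10 transcripts described here encode enzymes that remove reactive oxygen species or supply the glutathione and heme breakdown products used against them: *Sod1*, *Sod2*, *Cat*, *Gpx1*, *Gpx4*, *Prdx1*, *Prdx2*, *Prdx3*, *Hmox1* and *Gclm*. They were chosen by gene name, and all 10 names were found, each on a single row, among the 13129 gene names of the deposited table. The study asked whether the posterior ventricular zone (VZ), the layer of progenitor cells lining the ventricle, responds to thyroid hormone in the newborn. Long Evans rat dams drank water that held 3 ppm of propylthiouracil (PTU), a drug that blocks the making of thyroid hormone, or 0 ppm (control), from early pregnancy on. The VZ was cut out by laser capture microdissection on postnatal day 2 from 1 male pup of each of 7 control litters, labelled euthyroid, and of 6 PTU exposed litters, labelled hypothyroid. The labels name no engineered allele and no further treatment, and the captured tissue holds every cell type of that layer, so a transcript that is lower because fewer cells express it cannot be told apart from one that is lower in each cell.

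Superoxide leaking from the respiratory chain or made by oxidases is turned into hydrogen peroxide by the superoxide dismutases, SOD1 in the cytosol and SOD2 in the mitochondrial matrix. Catalase, the glutathione peroxidases and the peroxiredoxins then reduce the peroxide, with glutathione or thioredoxin as the electron donor for the last 2 families. Many of these genes are activated by NRF2 (*Nfe2l2*), a transcription factor that binds a short DNA motif called the antioxidant response element, and *Hmox1* and *Gclm* are classical NRF2 targets. Thyroid hormone sets the metabolic rate of many tissues and with it the amount of oxidants they produce.

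The 250 bases before the transcription start are printed for 4 members: the 3 that hold the letters of the antioxidant response element searched for (TGACNNNGC, either strand), and *Sod1*, whose difference between groups lay opposite to that of *Prdx1* and whose window does not hold them. The sequences are from RefSeq in the build GRCr8, whereas the expression values rest on mRatBN7.2. Each is written 5′ to 3′ along its gene, and capitals mark the element's letters, which in all 3 lie on the strand opposite to the gene.
Prdx1 promoter, GRCr8 chr5:135383656-135383905, plus strand: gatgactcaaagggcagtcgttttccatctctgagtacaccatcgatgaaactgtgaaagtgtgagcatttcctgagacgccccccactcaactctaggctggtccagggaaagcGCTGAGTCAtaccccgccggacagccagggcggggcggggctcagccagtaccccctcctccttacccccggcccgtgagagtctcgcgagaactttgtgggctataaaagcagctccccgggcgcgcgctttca
Gclm promoter, GRCr8 chr2:213031885-213032134, plus strand: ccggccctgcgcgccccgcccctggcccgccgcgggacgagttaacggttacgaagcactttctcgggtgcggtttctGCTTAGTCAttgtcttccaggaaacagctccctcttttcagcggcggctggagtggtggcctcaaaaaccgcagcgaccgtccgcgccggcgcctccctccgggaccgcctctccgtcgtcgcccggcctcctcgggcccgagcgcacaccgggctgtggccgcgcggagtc
Sod2 promoter, GRCr8 chr1:50050169-50050418, minus strand: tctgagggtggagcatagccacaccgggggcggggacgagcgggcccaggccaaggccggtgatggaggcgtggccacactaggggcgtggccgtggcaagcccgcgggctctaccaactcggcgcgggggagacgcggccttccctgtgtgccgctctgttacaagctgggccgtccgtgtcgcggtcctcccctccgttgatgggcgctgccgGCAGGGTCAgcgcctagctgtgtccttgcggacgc
Sod1 promoter, GRCr8 chr11:42942573-42942822, plus strand: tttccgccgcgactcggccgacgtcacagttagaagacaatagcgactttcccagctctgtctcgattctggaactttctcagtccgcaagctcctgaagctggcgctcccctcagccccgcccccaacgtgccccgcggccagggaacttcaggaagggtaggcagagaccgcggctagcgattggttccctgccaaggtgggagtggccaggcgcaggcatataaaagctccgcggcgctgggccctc
The letters began 172 bases before the start in *Gclm*, 135 in *Prdx1* and 35 in *Sod2*. RefSeq gave 11 promoter entries for 9 of the members, with none for *Hmox1*, and 3 of the 11 held the element, beside 10.1% of all 33469 promoters of this length. The thyroid hormone receptor core motif AGGTCA (either strand) was found in 1 or more entries of *Cat*, *Gpx4* and *Prdx3*, and in 14.1% of all promoters. A DR4 element, the direct repeat of that core motif with 4 bases between (either strand), was in 0 of the 11 entries and in 0.00299% of all promoters. These are matches of letters, not measured binding. The 3 members with the element's letters were lower on average in the PTU group. So were *Gpx1*, *Gpx4*, *Prdx2* and *Prdx3* without them, whereas *Sod1* and *Cat*, also without them, were higher. A link between the letters and the direction of a difference was not tested.

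The deposited values are normalized counts: reads assigned to each transcript, divided by a factor for the size of each library. They are not divided by transcript length, so levels are compared between pups and not between genes. Between 22295663 and 43513104 counted reads were estimated per control pup and between 28415353 and 44388408 per PTU exposed pup, of which 3 rows without a gene name took 23.9 to 60.1%. All 8 of the VZ markers examined (*Sox2*, *Pax6*, *Vim*, *Nes*, *Hes1*, *Hes5*, *Fabp7*, *Slc1a3*) were present in the tissue, with a summed level of 73699 to 102847 normalized counts in control and 61169 to 80981 in PTU exposed pups, and 8 of 8 were lower in the PTU group. Group means of markers of other cell types differed as well. The microdissection was aimed at the ventricular epithelium, recognised by its shape, and the study describes the neighbouring choroid plexus as no part of the sequenced tissue, although its markers were detected in every pup. The summed level of 8 choroid plexus markers was 50217 to 140555 (median 113753) in control pups and 23308 to 100211 (median 56545) in PTU exposed pups, with 8 of 8 lower, while that of 8 neuron markers was 55459 to 81068 and 73612 to 127641, with 8 of 8 higher. None of these 24 markers passed the threshold of 0.05 on the adjusted p in limma. At an unadjusted limma p under 0.05 were 5 VZ, 4 choroid plexus and 5 neuron markers, beside 16.3% of all rows tested. Of the markers found for other cell types, 5 of 6 for endothelium, 5 of 7 for microglia, 0 of 2 for erythrocytes and 1 of 5 for ependymal cells were higher in the PTU group. The summed ependymal markers were 2872 to 5235 in control and 1901 to 4387 in PTU exposed pups, and 3 of the 5 had an unadjusted p under 0.05.

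None of the 10 antioxidant enzyme transcripts passed that threshold between PTU exposed and control pups. *Sod1* and *Cat* were higher on average in PTU exposed pups and the other 8 lower, with a median log2 fold change of -0.13 over the members and 0.00 over all 14606 rows tested, of which 49.3% were lower. In limma, the share of all rows with an adjusted p of at most 0.05 was 0%, with 16.3% at an unadjusted p under 0.05, and of the members 1, *Prdx1*, was in the latter group. The values of control and PTU exposed pups overlapped in all 10 members; of all rows tested, 0.596% had groups that did not overlap (0.335% higher and 0.26% lower in the PTU group). Giving all pups an equal total moved every row up alike, with a median over all rows of 0.20. On that scale the member median was 0.08, below that of all rows as before, and *Prdx1* and *Hmox1* were the 2 members below 0.

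**Figure D1:**
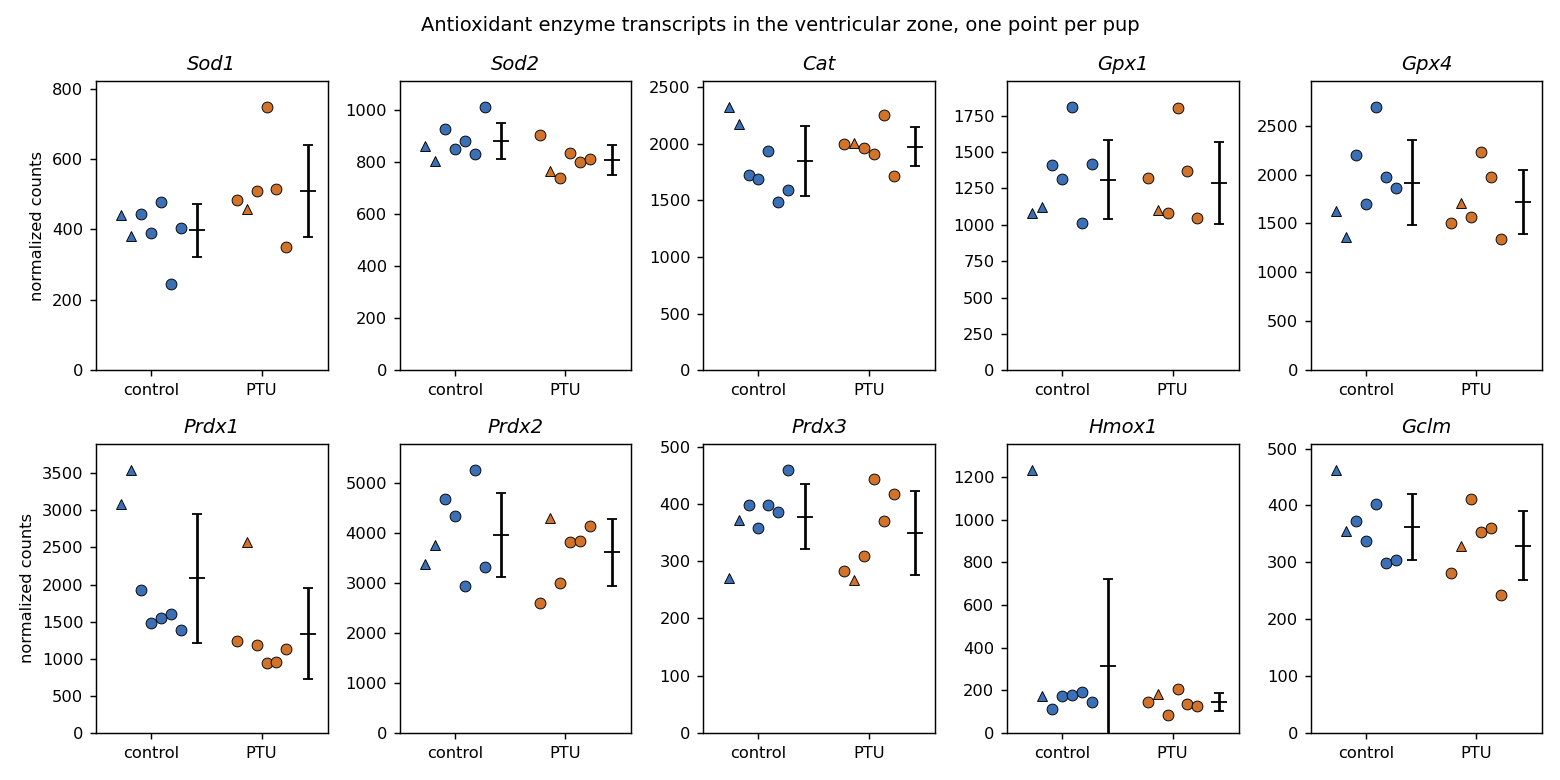
Normalized counts of the 10 antioxidant enzyme transcripts, with 1 point per pup (blue, 7 control; orange, 6 PTU), and beside each group its mean and SD on an axis that starts at 0. Triangles mark control 1, control 2 and PTU 2, the 3 pups with the highest *Prdx1*, and the lower SD bar of *Hmox1* in controls runs below the axis.

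*Sod1*, the copper and zinc dismutase of the cytosol, was the member with the largest average excess in PTU exposed pups. Control pups 1 to 7 had 441, 380.4, 442, 389, 477, 244 and 405 normalized counts, and PTU exposed pups 1 to 6 had 482, 457, 509.8, 747, 516 and 349. The PTU group thus spanned a wider range, from PTU 6, which lay below 6 of the 7 controls, to PTU 4, well above every other pup, and control 6 was the lowest of all. The means were 397 ± 75.6 (SD, n = 7) and 510.1 ± 131 (SD, n = 6), a log2 fold change of 0.35 with a 95% interval from -0.01 to 0.72 (limma, adjusted p = 0.322). An exact permutation test of the difference (two-sided) gave p = 0.0787, and 5 of 6 PTU exposed pups were above the control mean. The log2 fold change was 0.23 without PTU 4 and 0.24 without control 6.

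The level of *Sod1* went with the choroid plexus markers from pup to pup. With both centred within their group, Pearson's r over 13 pups was 0.87 (permutation p = 0.00047, adjusted p = 0.0329 over 70 pairs of a member and a marker list) and Spearman's rho was 0.56 (permutation p = 0.0509, adjusted p = 0.445), and r was 0.65 without the 2 pups farthest from the median of the marker score. It was the only pair of the 70 that passed. Without control 1, control 2 and PTU 2, r was 0.93 over 10 pups with an adjusted permutation p of 0.0693, and with an equal total for all pups, which adds a common shift per pup to every row, 21 of the 70 pairs passed. PTU 4, the highest in *Sod1*, had the highest marker score of the PTU group, and control 6, the lowest, had the lowest of the controls. Control 6 (-0.68) was also the only control with a score below 0, where PTU 2, PTU 3, PTU 5 and PTU 6 lay (-0.22 to -1.47). The groups thus shared little of the range of scores, which limits any comparison at a like score. The markers were lower in the PTU group while *Sod1* was higher, and with that marker score as a covariate the log2 fold change of *Sod1* was 0.67 (limma, adjusted p = 0.0916). With the neuron score as the covariate it was 0.44 (limma, adjusted p = 0.494), and these were the lowest and highest adjusted p over all alternative settings.

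**Figure D2:**
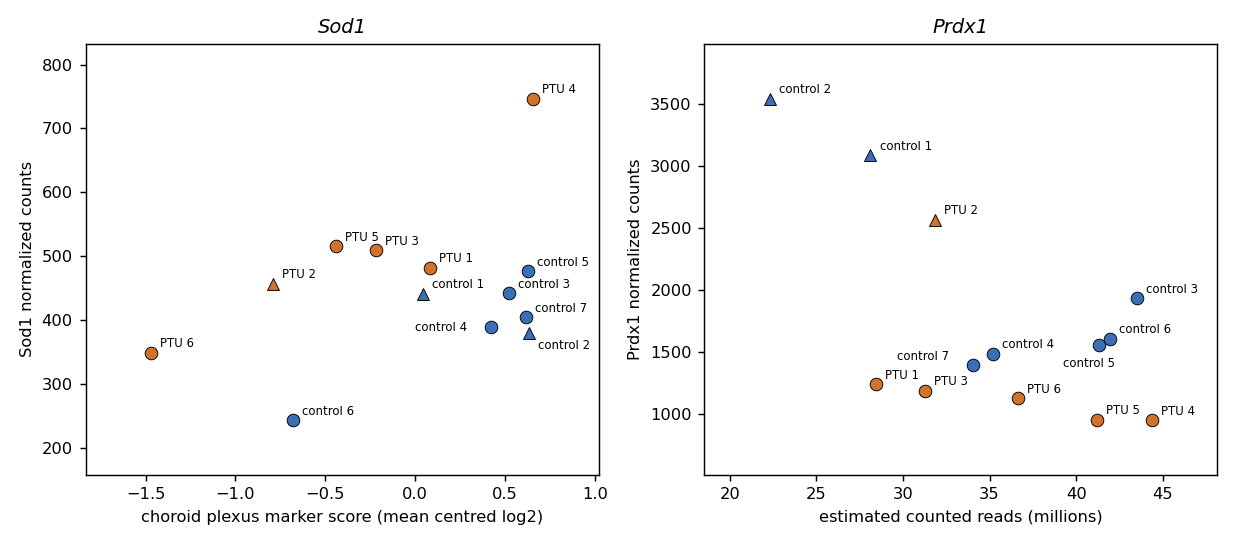
Left, normalized counts of *Sod1* against the choroid plexus marker score (mean of centred log2 values) of each pup, and right, normalized counts of *Prdx1* against the estimated number of counted reads (blue, control; orange, PTU; triangles, the 3 pups with the highest *Prdx1*). Where marker scores were alike PTU exposed pups tended to lie above controls in *Sod1*, but the groups shared few scores. Control 6 was the only control with a score below 0. Control 1, control 2 and PTU 2 stand above the other 10 pups in *Prdx1*.

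*Sod2*, the manganese enzyme of mitochondria, varied little. Control pups ranged from 806 to 1011 normalized counts (median 863) and PTU exposed pups from 737 to 906 (median 807), and the 2 ranges overlapped. The means were 882 ± 69.0 (SD, n = 7) and 809 ± 58.3 (SD, n = 6), a log2 fold change of -0.12 with a 95% interval from -0.30 to 0.06 (limma, adjusted p = 0.484). The exact permutation test (two-sided) gave p = 0.0624, with 5 of 6 PTU exposed pups below the control mean.

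*Cat*, which encodes catalase, the peroxisomal enzyme that splits hydrogen peroxide without a donor, had 1485 to 2319 normalized counts in control pups (median 1721) and 1717 to 2248 in the PTU group (median 1978). Control 1 and control 2 were the 2 highest controls, and the PTU group lay inside the range of the controls. The log2 fold change was 0.11 with a 95% interval from -0.11 to 0.33 (limma, adjusted p = 0.629), and it was 0.06 without control 6 and 0.17 without control 1. The spread differed in size, with a coefficient of variation of 16.7% in controls and 8.69% in the PTU group.

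The glutathione peroxidases gave small differences within wide intervals. *Gpx1*, the cytosolic selenoenzyme, had 1012 to 1808 normalized counts in controls (median 1318) and 1049.8 to 1803 after PTU exposure (median 1209.9), so that the groups covered almost the same range. Its log2 fold change was -0.03 with a 95% interval from -0.33 to 0.28 (limma, adjusted p = 0.944). Its sign changed in 7 of 26 alternative settings, among them the equal total, which moves all rows up. *Gpx4*, which reduces lipid peroxides in membranes and guards against ferroptosis, had 1357 to 2687 in controls (median 1861) and 1336 to 2226 after PTU exposure (median 1635). Its log2 fold change was -0.15 with a 95% interval from -0.45 to 0.16 (limma, adjusted p = 0.633), and it was -0.06 without control 5, -0.08 without PTU 6 and -0.23 without PTU 4. Over all alternatives other than the equal total it lay between -0.29, without the 3 pups highest in *Prdx1*, and -0.01, with the neuron score as covariate. Control 5 was the highest control and PTU 4 the highest PTU exposed pup in both transcripts.

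*Prdx1*, a cytosolic peroxiredoxin that works with thioredoxin, showed the largest log2 fold change among the members in the main fit. Control pups 1 to 7 had 3088, 3543, 1930.4, 1485, 1551, 1606 and 1393 normalized counts, and PTU exposed pups 1 to 6 had 1237, 2567, 1185, 948, 952 and 1126. Of the PTU exposed pups, 5 lay below every control and 1, PTU 2, lay above 5 of the 7 controls. The means were 2085 ± 867 (SD, n = 7) and 1336 ± 615 (SD, n = 6), a log2 fold change of -0.64 with a 95% interval from -1.16 to -0.12 (limma, unadjusted p = 0.0181, adjusted p = 0.221). An exact permutation test (two-sided) gave p = 0.0606. Without PTU 2 the log2 fold change was -0.85 (limma, adjusted p = 0.0548), and over all alternative settings it lay between -0.85 and -0.44, with an adjusted p of 0.0398 to 0.553 in limma. The lowest of these came from the fit with a replicate block, in which the log2 fold change was -0.73. *Hmox1* differed by more than *Prdx1* in some alternatives, such as without control 3 (-0.75 against -0.65).

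The 3 pups with the highest *Prdx1* were control 1, control 2 and PTU 2. These same pups were also the 3 highest in 344 of the 14606 rows tested and the 3 lowest in 223. They were not the only pups to share rows in this way: PTU 1, PTU 3 and PTU 6 were the 3 highest in 425 rows, and the mean over all 286 sets of 3 pups was 51.1 rows. Among the other antioxidant genes, *Gstp1* and *Fth1* had them as their 3 highest pups. Control 2 and control 1 had the fewest estimated reads of the control group, and PTU 2 was the fourth deepest of the PTU group. The part of these features in the difference of *Prdx1* was not tested. RefSeq names 7 pseudogenes of *Prdx1*, 4 of *Gpx4* and 1 each of *Sod2* and *Prdx3*. Reads shared with such copies can be divided in the authors' counting, which could make these 4 levels less certain than the others. The number of shared reads was not measured.

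*Prdx2*, the other cytosolic peroxiredoxin, ranged from 2929 to 5251 normalized counts in controls (median 3763) and from 2604 to 4295 in the PTU group (median 3818), so that the median was higher and the mean lower in the PTU group. The means were 3951 ± 833 and 3609 ± 667 (SD), a log2 fold change of -0.13 with a 95% interval from -0.43 to 0.17 (limma, adjusted p = 0.684). It was -0.04 without PTU 1, -0.05 without control 6 and -0.19 without control 5, and -0.29 with the choroid plexus score as covariate. *Prdx3*, the peroxiredoxin of mitochondria, ranged from 271 to 459 in controls (median 385) and from 267 to 444 in the PTU group (median 339), with a log2 fold change of -0.13 and a 95% interval from -0.45 to 0.19 (limma, adjusted p = 0.702), and it was -0.06 without PTU 2 and -0.20 without control 1. The 3 pups highest in *Prdx1* were not the 3 highest in either. In *Prdx2*, PTU 2 was the highest of the PTU group, while control 1 and control 2 lay below the control mean. In *Prdx3*, PTU 2 and control 1 had the 2 lowest levels.

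*Hmox1*, the inducible heme oxygenase and a stress responsive gene, stood out in a single animal. Control 1 had 1233 normalized counts, the other 6 controls 114 to 190 (189.6 at most), and the PTU exposed pups 84.8 to 205 (median 139.9). Apart from control 1 the groups covered a similar range. The log2 fold change was -0.60 with a 95% interval from -1.48 to 0.27 (limma, adjusted p = 0.477), and -0.18 without control 1 (limma, adjusted p = 0.703, the highest of all alternatives, which began at 0.278). *Gclm*, the modifier subunit of the enzyme that limits glutathione synthesis, ranged from 299 to 462 in controls (median 355) and from 243 to 412 after PTU exposure (median 341). Its log2 fold change was -0.14 with a 95% interval from -0.45 to 0.17 (limma, adjusted p = 0.654), and it was -0.06 without PTU 6 and -0.21 without PTU 3. Control 1 was the highest pup in *Gclm* as well.

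**Figure D3:**
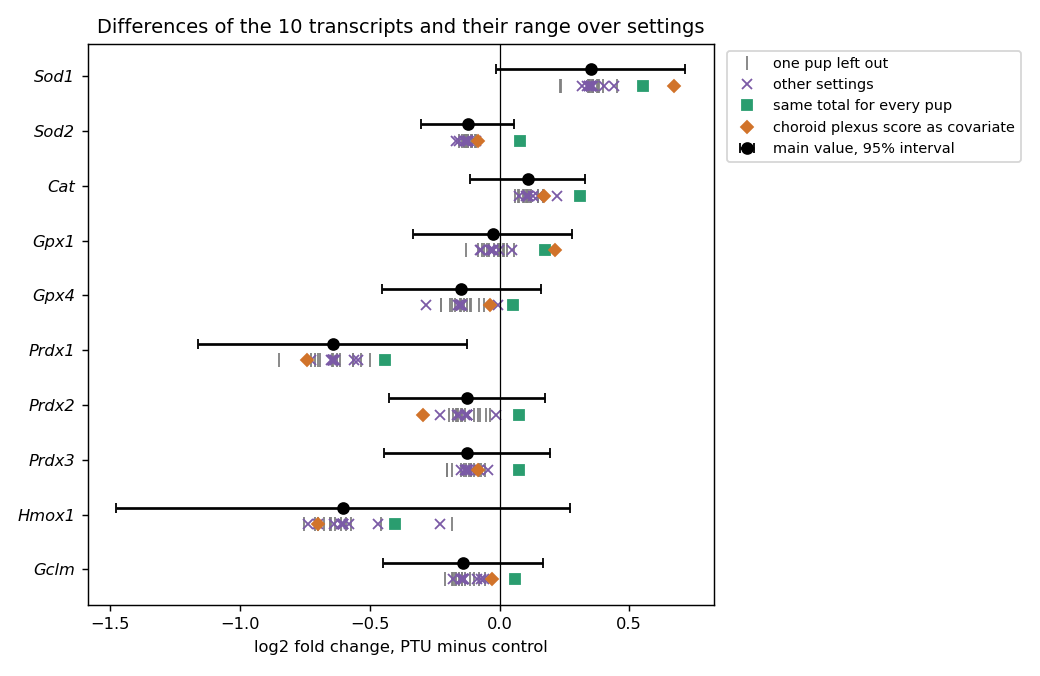
Log2 fold change of each member, PTU minus control (black points, limma with 95% intervals), and below it the values with 1 pup left out, with an equal total for all pups, with the choroid plexus score as covariate and under the other settings. *Sod1* and *Cat* stayed above 0 and *Prdx1* and *Hmox1* below 0 in all 26 alternatives. *Gpx1* had both signs in several settings, and *Sod2*, *Gpx4*, *Prdx2*, *Prdx3* and *Gclm* were above 0 only with the equal total, which moves all rows up by about 0.20.

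The members differed in how much they varied among pups. The highest pup had 14.5 times the level of the lowest in *Hmox1*, 3.74 times in *Prdx1* and 3.06 times in *Sod1*, but only 1.37 times in *Sod2* and 1.56 times in *Cat*. The figure for *Hmox1* rests on control 1, since the other 12 pups lay between 84.8 and 205 normalized counts. Within the control group the coefficient of variation was 7.83% for *Sod2*, 41.6% for *Prdx1* and 129% for *Hmox1*, and in the PTU group that of *Prdx1* was 46.0%.

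They did not move as one group from pup to pup. Of the 45 pairs of members, 25 had a positive correlation of log2 values centred within groups, with a median Pearson's r of 0.05, and 0 had an adjusted permutation p of at most 0.05 (7 at an unadjusted p under 0.05). The highest values were those of *Sod1* with *Gpx1* (r = 0.77, permutation p = 0.00254; rho = 0.75, permutation p = 0.00451; adjusted p = 0.0572 and 0.138) and of *Gpx1* with *Gpx4* (r = 0.76, permutation p = 0.00247; rho = 0.65, permutation p = 0.0192; adjusted p = 0.0572 and 0.173). Without the 2 pups farthest from the median, r was 0.60 and 0.46. Without control 1, control 2 and PTU 2, *Sod1* with *Gpx1* was the 1 pair that passed (r = 0.90 over 10 pups, permutation p = 0.00082, adjusted p = 0.0369; rho = 0.87, adjusted p = 0.0981). The most negative was *Prdx1* with *Prdx3* (r = -0.68, permutation p = 0.0109; rho = -0.73, permutation p = 0.00612; adjusted p = 0.107 and 0.138), and r was -0.77 without the 2 farthest pups. With an equal total for all pups, which adds 1 common shift per pup to every row, 10 of the 45 pairs passed; that count is not read as a relation between the members.

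**Figure D4:**
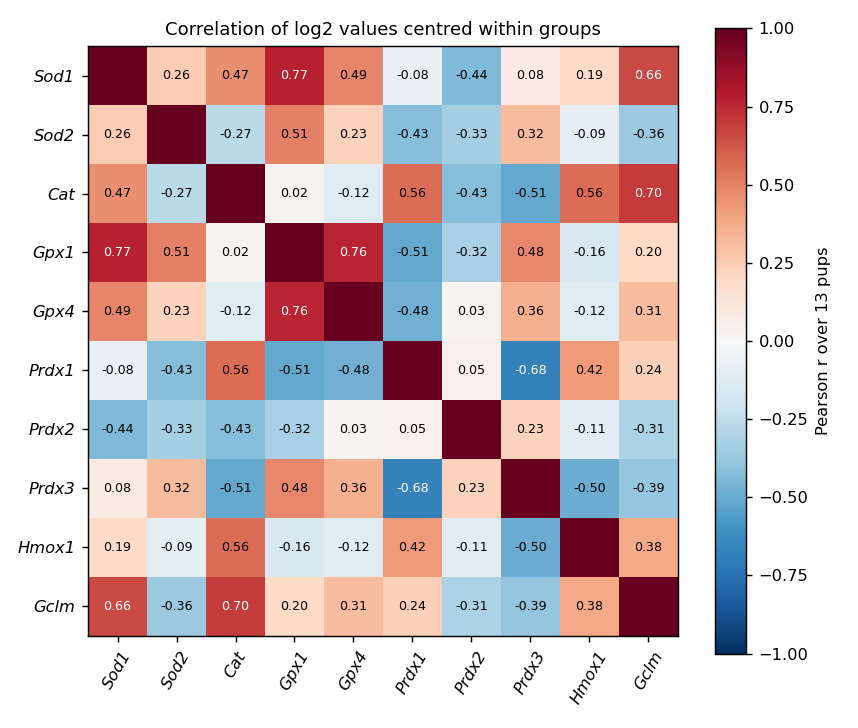
Pearson's r between members over 13 pups, from log2 values centred within the control and PTU groups. *Sod1*, *Gpx1* and *Gpx4* have positive values with each other (0.49 to 0.77), as do *Cat* with *Gclm* (0.70) and *Sod1* with *Gclm* (0.66). *Prdx1* and *Prdx3* have -0.68.

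The row most like each member over the 13 pups, by Pearson's r of centred log2 values among the tested rows of other named genes, was *Tbcel* for *Sod1* (0.95), *Isca1* for *Sod2* (0.88), *Rab3gap2* for *Cat* (0.89), *Pfkl* for *Gpx1* (0.96) and *Pygb* for *Gpx4* (0.95). *Pfkl* and *Pygb* encode enzymes of glycolysis and glycogen breakdown. For the others it was *Ndufb11* for *Prdx1* (0.97), AABR07008421.1 for *Prdx2* (0.96), AC141489.1 for *Prdx3* (0.90), *Mrpl32* for *Hmox1* (0.85) and *Lrrk2* for *Gclm* (0.89). Each is the highest of all rows compared, and they are given as a description. Without control 1, control 2 and PTU 2, the value of *Ndufb11* with *Prdx1* was 0.62 and that of *Mrpl32* with *Hmox1* 0.45, whereas *Tbcel* with *Sod1* had 0.98 and *Pfkl* with *Gpx1* 0.96.

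Of 51 other genes of antioxidant defence that were listed, 48 were found, and 0 of them passed the threshold in limma. In the PTU group 21 were higher and 27 lower, with a median log2 fold change of -0.07, and 5 of them were higher (8.11% of all rows) and 5 lower (8.2%) at an unadjusted p under 0.05. By role, 1 of 7 genes was higher and 6 were lower among the other peroxidases, the extracellular dismutase *Sod3* and the SOD1 chaperone *Ccs*. Also higher were 6 of 8 genes of glutathione synthesis and recycling, 3 of 6 glutathione transferases and 3 of 5 genes of the thioredoxin system. So were 5 of 12 genes of repair, metal and heme handling, 1 of 5 NRF2 regulators and 2 of 5 genes of selenoprotein synthesis and transport.

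The lowest unadjusted p on that list belonged to *Nfe2l2*, which encodes NRF2 itself. It ranged from 540 to 954 normalized counts in controls (median 769) and from 342 to 716 after PTU exposure (median 408), and 5 of the 6 PTU exposed pups lay below every control, with PTU 2 again the exception. The means were 758 ± 145 (SD, n = 7) and 459 ± 142 (SD, n = 6), a log2 fold change of -0.75 (SE 0.17, limma, adjusted p = 0.122). Without PTU 2 it was -0.89 (limma, adjusted p = 0.0252, the lowest of all alternatives, which reached 0.433), in a fit where 179 of all rows passed against 0 with every pup included. Its partners and repressors on the list, *Keap1*, *Bach1*, *Mafg* and *Mafk*, had log2 fold changes of -0.13, -0.04, 0.03 and -0.21.

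Among genes that act beside the members, the copper chaperone of SOD1, *Ccs*, and the extracellular dismutase *Sod3* were both lower on average, and neither passed the threshold. *Ccs* ranged from 357 to 637 normalized counts in controls (median 459) and from 232 to 404 in the PTU group (median 301), with a log2 fold change of -0.63 (SE 0.15, limma, adjusted p = 0.122), and -0.71 without PTU 2 (limma, adjusted p = 0.0391, with up to 0.445 in other alternatives), in the same fit of 179 rows. *Sod3* ranged from 1149 to 4478 in controls (median 2583) and from 558 to 1598 in the PTU group (median 1417). In *Sod3* only control 6 among the controls lay within the range of the PTU group. Its log2 fold change was -1.11 (SE 0.28, limma, adjusted p = 0.125), and -0.54 (limma, adjusted p = 0.225, with 0.0398, in the replicate block, to 0.417 over all alternatives) when the choroid plexus score was a covariate.

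*Selenop*, the plasma selenoprotein that carries selenium to cells, and *Glrx*, a glutaredoxin that removes glutathione from proteins, were higher on average in the PTU group. *Selenop*, named here for its low p, was the only gene of the members and the list whose groups did not overlap, beside 0.335% of all rows that were higher without overlap. It had 1701 to 2016 normalized counts in controls (median 1879.6) and 2094 to 2626 after PTU exposure (median 2326). The log2 fold change was 0.33 (SE 0.08, limma, adjusted p = 0.122), and 0.35 without PTU 2 (limma, adjusted p = 0.0453, with up to 0.417 in other alternatives), also in that fit. *Glrx* ranged from 242 to 444 in controls (median 311) and from 383 to 1149.8 after PTU exposure (median 444), where PTU 1 was the highest and the next pup stood at 607. Its log2 fold change was 0.68 (SE 0.22, limma, adjusted p = 0.171), and 0.34 (limma, adjusted p = 0.565, with 0.0643 at the lowest of all alternatives) with the neuron score as covariate.

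The 3 genes of the list with the highest mean normalized counts showed small differences. The log2 fold changes were -0.15 for *Gstm1*, a glutathione transferase, -0.08 for *Fth1*, the ferritin heavy chain, and 0.06 for *Txnrd1*, the cytosolic thioredoxin reductase (limma, adjusted p = 0.615, 0.799 and 0.742). With 1 pup left out, *Gstm1* lay between -0.24 (without PTU 2) and -0.08 (without PTU 4). *Txnrd1* lay between 0.02 (without PTU 3) and 0.10 (without control 5).

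**Figure D5:**
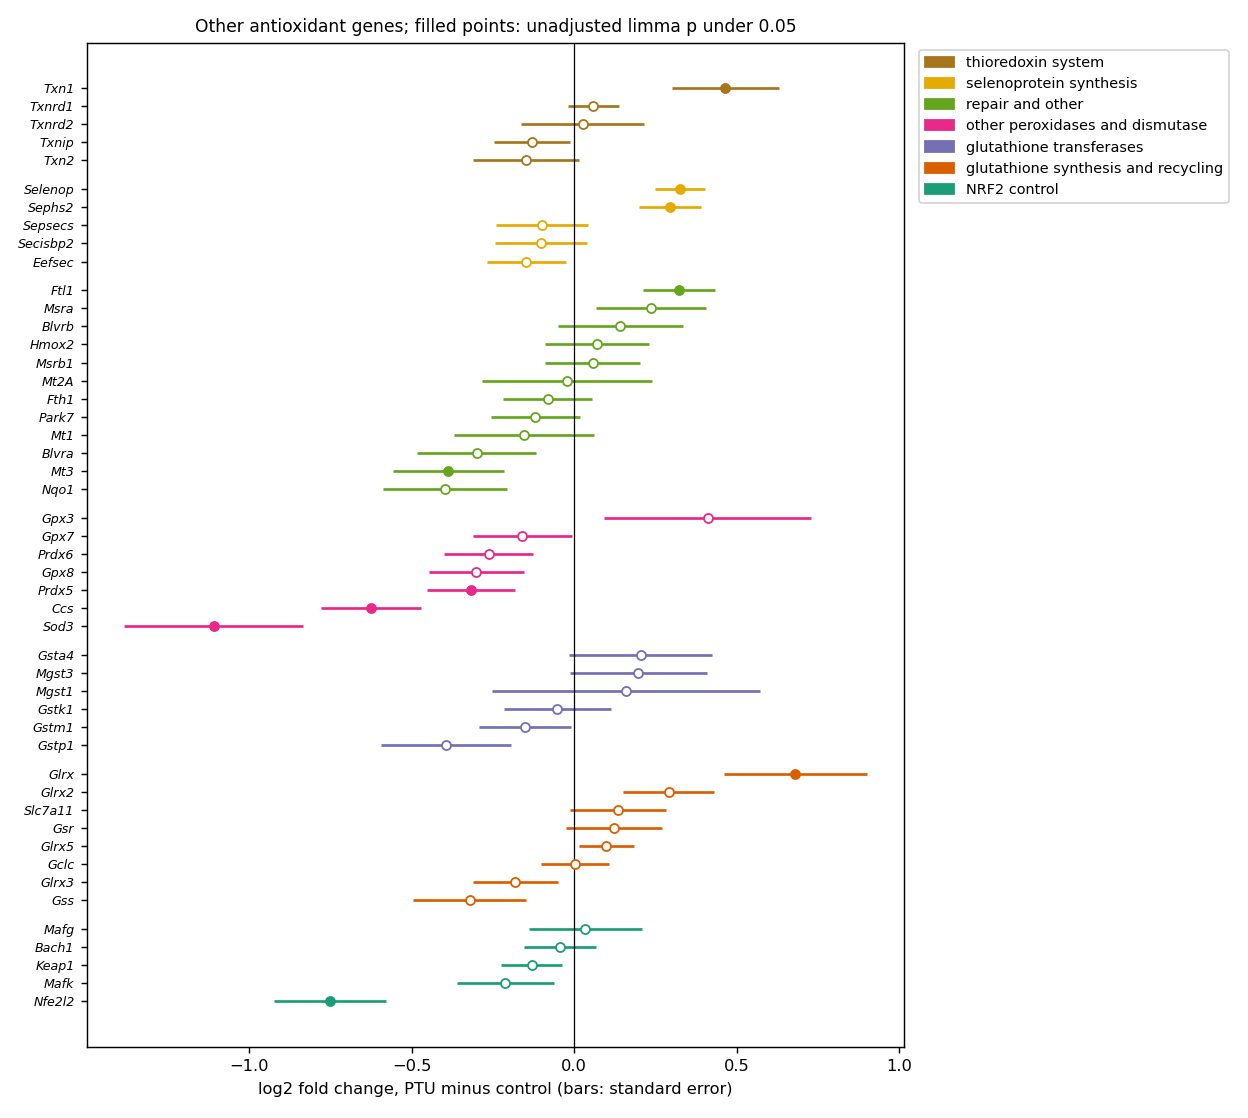
Log2 fold change, PTU minus control, of 48 other antioxidant genes grouped by role, with bars for the standard error and filled points where the unadjusted limma p was under 0.05. *Sod3*, *Nfe2l2* and *Ccs* lie farthest below 0 (-1.11, -0.75 and -0.63) and *Glrx* farthest above (0.68).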

How the data were processed

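Total RNA-Seq libraries (stranded, rRNA depleted) were made from microdissected VZ (7 control and 6 PTU exposed pups). Per the labels and the methods of the study, the authors trimmed reads with Trimmomatic, aligned them to mRatBN7.2 (rn7) with STAR 2.7.8a, estimated counts per transcript by expectation/maximization in Partek and scaled each pup by the median ratio method. What they deposited is thus a signal of 0 or more, named normalized counts here. A RefSeq annotation is named in the methods, but rows carry Ensembl identifiers. The deposited table also holds the authors' DESeq2 comparison (group means, p-value, FDR, ratio, log2 ratio and signed fold change), which was not used. No pup column was left out.

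Of 14716 rows, 14606 whose mean over the pups reached 10 were transformed to log2(normalized count + 1), a scale that understates changes of low rows, and compared with limma 3.58.1 in R 4.3.3 (variance trend, Benjamini-Hochberg adjustment, threshold 0.05). A gene was read from its row with the highest mean, and p-values were adjusted over all rows. Exact permutation tests covered all 1716 regroupings of 13 pups into 7 and 6 (two-sided), and correlations used 100000 permutations. A marker score is the mean of row-centred log2 values. Reads per pup were estimated from the step between low values, of which 88.7 to 90.3% from 20 to 150 were whole multiples of it within 0.05 reads, short of the 95% set for use of a count model. No raw depth was used, so intervals cover the spread between pups.

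The members and gene lists were chosen with earlier results of these data known. Named are all members, the 5 other antioxidant genes with the lowest unadjusted p, the 3 with the highest mean, and the row most like each member. The analysis was tested on simulated data, drawn row by row with the spread of these rows. Of 50 rows changed by 0.5 log2, 18 were recovered at the threshold, with 42 of 50 at 1, 46 at 2 and 50 at 4. Of 14406 unchanged rows, 10 were called. Among the members, only *Prdx1* and *Hmox1* differed by more than 0.5. Alternatives were pseudocounts of 0.1 and 10, no filter, a mean of at least 100, TMM factors (computed on the deposited values), an equal total for all pups, rows of a gene summed, pups weighted by quality, voom on estimated reads, a block for the replicate number, and each pup left out. Chosen after seeing the data were leaving out the 3 pups with the highest *Prdx1* and using the choroid plexus or neuron marker score as a covariate. Tables were handled in pandas 2.3.3 and numpy 2.4.6, permutations in scipy 1.17.1 and figures in matplotlib 3.10.9, under Python 3.11.15.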

Additional observations from a re-analysis of the deposited data

Results flagged for a closer look

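In the genes described, 36 groups of pups (18 genes, 2 groups each) were searched for a single pup that stood apart from the rest of its group by Dixon's criterion, and 4 did so. Chance gives about 1 in 20 such groups. *Sod1* in control 6 was low, at 243.7 normalized counts, beside 380.4 in the next control. *Prdx1* in PTU 2 was high, at 2567 normalized counts, beside 1237 in the next PTU exposed pup. *Hmox1* in control 1 was high, at 1233 normalized counts, beside 189.6 in the next control. *Glrx* in PTU 1 was high, at 1149.8 normalized counts, beside 607 in the next PTU exposed pup.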

How the results depend on the processing

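The number of all rows past the adjusted p of 0.05 in limma was 0, and it was 40 with pups weighted by quality, 18 with the replicate block, 1 without the 3 pups highest in *Prdx1*, 4 with the choroid plexus score as covariate, and 0 to 179 with 1 pup left out (179 without PTU 2, 7 without control 6). Of the members, 0 passed in every alternative but the replicate block, which pairs pups by a replicate number they only share and under which 1, *Prdx1*, passed (-0.73, adjusted p = 0.0398). *Sod3* also passed there (-1.09, adjusted p = 0.0398). Deviations of same-numbered pups from their group means had correlations of -0.07 to 0.20. Of 6 controls, 3 correlated best with the PTU exposed pup of their number, with 6 such pups for each to match. The SE of *Prdx1* was 0.11 with the block and 0.25 in the main fit. What the shared numbers stand for is not given by the labels and was not tested. With an equal total for all pups, which moved the median of all rows from 0.00 to 0.20, values above 0 follow from that common shift in *Sod2* (0.0789), *Gpx1* (0.175), *Gpx4* (0.0536), *Prdx2* (0.0758), *Prdx3* (0.0744), *Gclm* (0.0596), *Gstm1* (0.0492) and *Fth1* (0.12). *Gpx1* also turned with the choroid plexus (0.216) or neuron (0.0482) score as covariate. With 1 pup left out, *Gpx1* lay between -0.13 and 0.0552, above 0 without control 5, PTU 2, PTU 3 or PTU 6, and *Fth1* between -0.18 and 0.0345, above 0 without PTU 3. Pairs of members past an adjusted permutation p of 0.05 numbered 10 with the equal total and 1 without the 3 pups, against 0. Pairs of a member and a marker list numbered 21 and 0, against 1. The cause of these shifts was not tested. The 3 pups were chosen by their *Prdx1*, so its value without them has no weight as a test. Differences within the intervals given could not be resolved with 13 pups.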

Other observations

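Ratios within a pup do not depend on the scaling of its library, and 3 of them were formed after the values had been seen, so they are given as a description with no test. The log2 ratio of *Sod1* to the transcript of its copper chaperone *Ccs* was -1.38 to 0.30 in control pups and 0.18 to 1.07 in PTU exposed pups, a difference of means of 0.98, with 6 of 6 PTU exposed pups above the control mean. The log2 ratio of *Sod1* to *Sod2* was -1.77 to -0.88 in controls and -1.22 to -0.16 in PTU exposed pups, a difference of 0.47 with 5 of 6 above the control mean. For *Prdx1* to *Prdx2* it was -1.71 to -0.09 and -2.01 to -0.74, a difference of -0.52 with 5 of 6 below the control mean. With 1 pup left out, the difference for *Sod1* to *Ccs* lay between 0.79 and 1.08 that for *Sod1* to *Sod2* between 0.37 and 0.58, and that for *Prdx1* to *Prdx2* between -0.67 (without PTU 2) and -0.37 (without control 2).

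Among the genes of iron and selenium handling on the list, *Ftl1*, the ferritin light chain, had 3215 ± 590.5 normalized counts (SD) in the 7 controls and 4001 ± 485 in the 6 PTU exposed pups (log2 fold change 0.32, limma, adjusted p = 0.179), beside the small difference of the heavy chain. *Sephs2*, which makes the selenium donor for selenoprotein synthesis, had 796 ± 79.1 and 977 ± 96.5 (log2 fold change 0.30, limma, adjusted p = 0.174). *Txn1*, the cytosolic thioredoxin, had 183 ± 30.1 and 253 ± 50.7 (log2 fold change 0.47, limma, adjusted p = 0.189). For these 3 transcripts 6 of 6 PTU exposed pups were above the control mean. They were named after their values were seen.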
